A study of Mus musculus with 12 samples.

Results

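Dendritic cells of 4T1 mammary tumours that carried RNA of Ccr7 or Fscn1 were examined here, a group proposed as migratory dendritic cells. The rule took every cell that the authors' annotation of the CD45 libraries calls a dendritic cell (DC) and that held at least 2 UMIs of Ccr7 plus Fscn1, where a UMI, a unique molecular identifier, marks 1 captured RNA molecule. It found 934 cells among 1498 annotated DC, 54955 cells of the CD45 libraries and 115612 cells of the series. The 564 remaining DC served as the comparison. Because the rule was chosen from measured values, the levels of Ccr7 and Fscn1, and those of the label genes Il4i1 and Ccl22, are given as a description with no test.

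4T1 is a mouse mammary carcinoma line used as a model of triple-negative breast cancer in immunocompetent BALB/c mice. Clones E, EM1, EM2, EM3 and M, each derived from a single 4T1 cell, and the parental 4T1 line were implanted in the mammary fat pad of female BALB/c hosts aged 9 to 11 weeks. Each of the 6 groups gave 1 tumour, from which a Total library of the digested tumour and a CD45 library enriched with magnetic beads for leukocytes were made. The labels name no treatment and no tumour-free tissue, a clone stands for 1 cell's progeny, and with 1 tumour per group no test between groups was possible.

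Conventional dendritic cells take up antigen in tissue and, on maturing, move along lymph vessels to the draining lymph node. Ccr7 is the receptor for the lymph node chemokines Ccl19 and Ccl21 and directs this movement, and Fscn1, or fascin, bundles actin in the dendrites of mature cells. Mature cells of this kind are known for lowered uptake, raised costimulatory ligands and NF-kB signalling, and for the chemokines Ccl17 and Ccl22, which attract Ccr4-bearing T cells. Il4i1 is a secreted amino acid oxidase of mature DC that restrains T cells.

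The CD45 libraries held 28083101 to 57116299 UMIs, with a median of 1557 to 3453 UMIs per cell. The Ccr7/Fscn1 cells were deeper than that, with a median of 3797 to 6204 UMIs by tumour, close to the 3584 to 6449 of the other DC. Summed over a tumour they gave 362972 to 1280476 UMIs. Levels below are in CPM, a gene's UMIs scaled to the total UMIs of the same cells, with 95% Poisson intervals where given. Shares carry 95% Clopper-Pearson intervals, and both kinds of interval cover counting error only. Between CD45 libraries, the droplet part of the barcode recurred in 1640 cell pairs for Clones E and EM3 and in 1186 for EM1 and EM2, against 60 to 161 for other pairs. Between the Total and CD45 libraries of the same tumour it recurred in 850 (EM1) to 1732 pairs (Clone E). Clone M had 1450 such pairs and the parental tumour 1112. Of the Ccr7/Fscn1 cells, 327 (35.0%) shared it with a cell of any other library, CD45 or Total, close to 36.3% of all CD45 cells. Whether wells or runs differ was not tested. Every fitted comparison but the alternative with no replicate block was made within a tumour, between cells of 1 library.

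The label genes were checked first. In the Ccr7/Fscn1 cells, Ccr7 had 3069 (E), 2935 (EM1), 3830 (EM2), 3464 (EM3), 4937 (M) and 4374 CPM (parental), against 20.8 to 61.1 in the other DC. Fscn1 had 595.1 (E), 449.8 (EM1), 699.1 (EM2), 418.6 (EM3), 314.1 (M) and 1072 CPM (parental), against 0 to 4.52. Il4i1 had 219.9 to 484.9 CPM against 2.06 to 38.3. Ccl22 had 391.2 CPM in Clone M to 1627 in the parental tumour, against 13.4 to 306.5, and its groups did not overlap across the 6 tumours. At the level of single cells the label held less well. Fscn1 was detected in 184 of the 934 cells (19.7%, 17.2 to 22.4), Il4i1 in 28.2% (25.3 to 31.2) and Ccl22 in 42.4% (39.2 to 45.6). In annotated macrophages of the same libraries, taken as cells that lack these genes, Fscn1 was detected in 0.676%, Il4i1 in 1.40% and Ccl22 in 1.66%, at a median depth by tumour of 5144.5 to 7660.5 UMIs. Ccr7 was found in 929 of the 934 cells, so that Ccr7 alone chose most of them.

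The 94 cells with exactly 2 UMIs of Ccr7 plus Fscn1 had 24.2 CPM of Il4i1, 107.1 CPM of Ccl22 and 8.64 CPM of Cacnb3. The 128 cells with 1 UMI, just outside, had 22.0, 89.4 and 9.79 CPM of the same genes. The 840 cells with 3 or more had 367.6, 920.7 and 292.3 CPM. Ccl17 differed more across the edge, with 539.2 CPM at 2 UMIs and 243.6 CPM at 1. Relb had 152.1 and 117.5 CPM there, and Il12b 3.46 and 4.90 CPM.

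Other classes met the same UMI rule in different measure. Of macrophages in the CD45 libraries 1.78% passed (1.19% to 2.302% by tumour), and of granulocytes 0.185%. Of T cells 39.3% passed and of B cells 38.6%, classes in which naive and central memory cells use Ccr7. T cell genes were low in the Ccr7/Fscn1 cells, with 179 to 476 CPM summed over 11 markers against 99.7 to 644.7 in the other DC. Genes of macrophages were not low: their 13 markers summed to 7430 to 29214 CPM in the Ccr7/Fscn1 cells and to 11341 to 36186 in the other DC. Apoe was found in 90.0% of the Ccr7/Fscn1 cells and the complement gene C1qa in 56.5%. The DC regulator Zbtb46 was found in 32.7% and the growth factor receptor Flt3 in 19.8%, against 1.05% and 0.120% of macrophages. A reference-based call by SingleR on ImmGen profiles, deposited by the authors, named 575 of the 934 cells (61.6%) DC and 315 (33.7%) macrophages. In the other DC it named 198 of 564 (35.1%) DC and 310 (54.96%) macrophages. Of the 934 cells 774 (82.9%) held a UMI of a T cell, B cell or granulocyte marker (Cd3d, Cd3e, Cd3g, Cd79a, Cd79b, S100a8 or S100a9), as did 495 of the 564 other DC (87.8%), and leaving such cells out kept as few as 6 Ccr7/Fscn1 cells in a tumour (EM3). A doublet score marked 49 of the 934 cells (5.25%), against 1.03% to 2.06% of all cells in the CD45 libraries, and 36 of the 564 other DC (6.38%). The part of macrophage RNA and of doublets in the results was not tested as such. The cells are therefore called Ccr7/Fscn1 cells below.

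Ccr7/Fscn1 cells were the larger share of the annotated DC in every CD45 library. The parental tumour had 74.2% (66.8 to 80.8), Clone EM2 67.3% (62.2 to 72.1) and EM1 64.4% (57.9 to 70.5). Clone M had 62.6% (52.3 to 72.1), EM3 57.2% (51.5 to 62.8) and E 54.3% (48.7 to 59.8). The intervals of Clone E and EM3 lay below that of the parental tumour, and those of EM1, EM2 and M overlapped it. After each cell was thinned to 2000 UMIs, the shares were 44.0% to 57.3%, the highest in Clone M, and the intervals of Clone E and the parental tumour overlapped. Of all cells in the CD45 libraries they were 2.68% (2.36 to 3.03) in EM2, 0.816% (0.626 to 1.05) in M and 1.58% to 1.78% in the other 4 tumours. Clone M was the lowest and EM2 the highest, both with intervals apart from the other tumours. In the Clone M library 3792 of the 7595 cells were other than granulocytes. Over such cells Clone M had 1.64% (1.26 to 2.09), still the lowest, with an interval that overlapped those of all tumours but EM2 (3.03%, 2.67 to 3.43). In the Total libraries the same rule took 463 of 665 annotated DC, 61.8% to 80.4% by tumour.

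**Figure D1:**
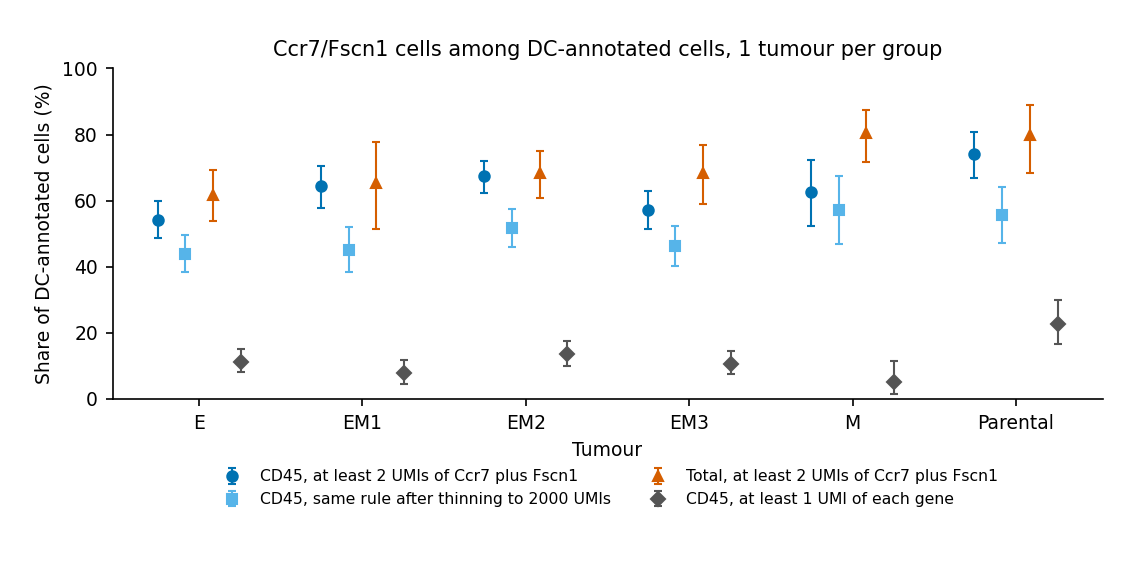
Share of annotated DC that met the rule, by tumour, with 95% Clopper-Pearson intervals. Circles give the CD45 libraries, squares the same after thinning each cell to 2000 UMIs, triangles the Total libraries and diamonds the CD45 cells with at least 1 UMI of each gene. The circles lie between 54.3% and 74.2%, the diamonds between 5.05% and 22.7%.

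Within a tumour, the Ccr7/Fscn1 cells differed from the other DC in a broad set of genes. Counts were summed per tumour and class and compared with edgeR's quasi-likelihood test, with the tumour as a block and Benjamini-Hochberg adjusted p under 0.05 as the threshold. Of 7338 genes tested, 525 were higher (7.15%) and 300 lower (4.09%) in the Ccr7/Fscn1 cells, with a median log2 fold change of -0.02 over all genes. All 6 values of the Ccr7/Fscn1 cells lay above all 6 of the other DC in 2.18% of the tested genes, and below them in 0.818%. Across the alternative settings, the calls over all genes ranged from 15 to 824 higher and from 3 to 867 lower. List counts under those settings are to be read beside this change. The smallest sums were those of Clone M, with 62 Ccr7/Fscn1 cells and 37 other DC. Standard errors of fold changes were derived from the F statistic and are approximate, and all are over n = 6 tumours.

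The label genes Il4i1 and Ccl22, with log2 fold changes of 4.25 each, were left out of the ranking. The other genes with the largest rise were Cacnb3, Il12b, Mreg, Cd200, Adgrg6, Tnfsf4, Tbc1d4, Car2, Ccl17, Strip2, Nr4a3 and Mmp25, chosen among genes higher in 6 of 6 tumours. Cacnb3, a calcium channel subunit long used as a marker of mature DC, had 271.6 (E), 178.9 (EM1), 241.2 (EM2), 213.2 (EM3), 264.5 (M) and 495.3 CPM (parental). In the other DC it had 3.10, 4.52, 10.4, 4.66, 4.15 and 23.9 CPM in the same order, so the lowest Ccr7/Fscn1 value lay above the highest of the other DC. Its log2 fold change was 5.31 ± 0.20 (SE, edgeR adjusted p = 2.69e-10). Nr4a3, a nuclear receptor linked to DC migration, had 1478 to 2410 CPM against 157.8 to 386.9 and a log2 fold change of 2.58 ± 0.17. Mmp25, a membrane-bound metalloproteinase, had 354.1 to 537.7 CPM against 60.6 to 104.0. Mreg and Adgrg6, an adhesion receptor, reached 4.05 ± 0.28 and 3.60 ± 0.19 on the log2 scale.

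Of the 20 tested genes of a list for DC maturation and migration, 16 were higher, none was lower and the median log2 fold change was 1.29, against -0.02 for all genes tested. The list was chosen with earlier results of these data known. Samsn1, an adaptor of lymphocyte signalling, had 494.5 (E), 411.3 (EM1), 566.8 (EM2), 474.0 (EM3), 804.5 (M) and 692.0 CPM (parental), against 156.1 to 315.7 in the other DC. Cd200, whose receptor restrains myeloid cells, had 57.2 to 142.5 CPM against 0 to 13.6. Tmem123 rose by 1.53 ± 0.12 on the log2 scale, Swap70, an actin regulator, by 1.45 ± 0.14, the prostaglandin receptor Ptger4 by 1.33 ± 0.14 and the granzyme inhibitor Serpinb9 by 1.56 ± 0.16. Cd83, which holds MHC class II at the surface, rose by 0.70 ± 0.13 (edgeR adjusted p = 0.0028), higher in 5 of 6 tumours. The exceptions were Cd63, a tetraspanin of late endosomes, at -0.04 ± 0.14, Anxa3 at -0.20 ± 0.12, Fas at 0.25 ± 0.22 and Arhgap22 at 0.49 ± 0.30, none of which passed the test. Cd63 was higher in the Total libraries, at 1.92 (edgeR adjusted p = 3.41e-06).

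**Figure D2:**
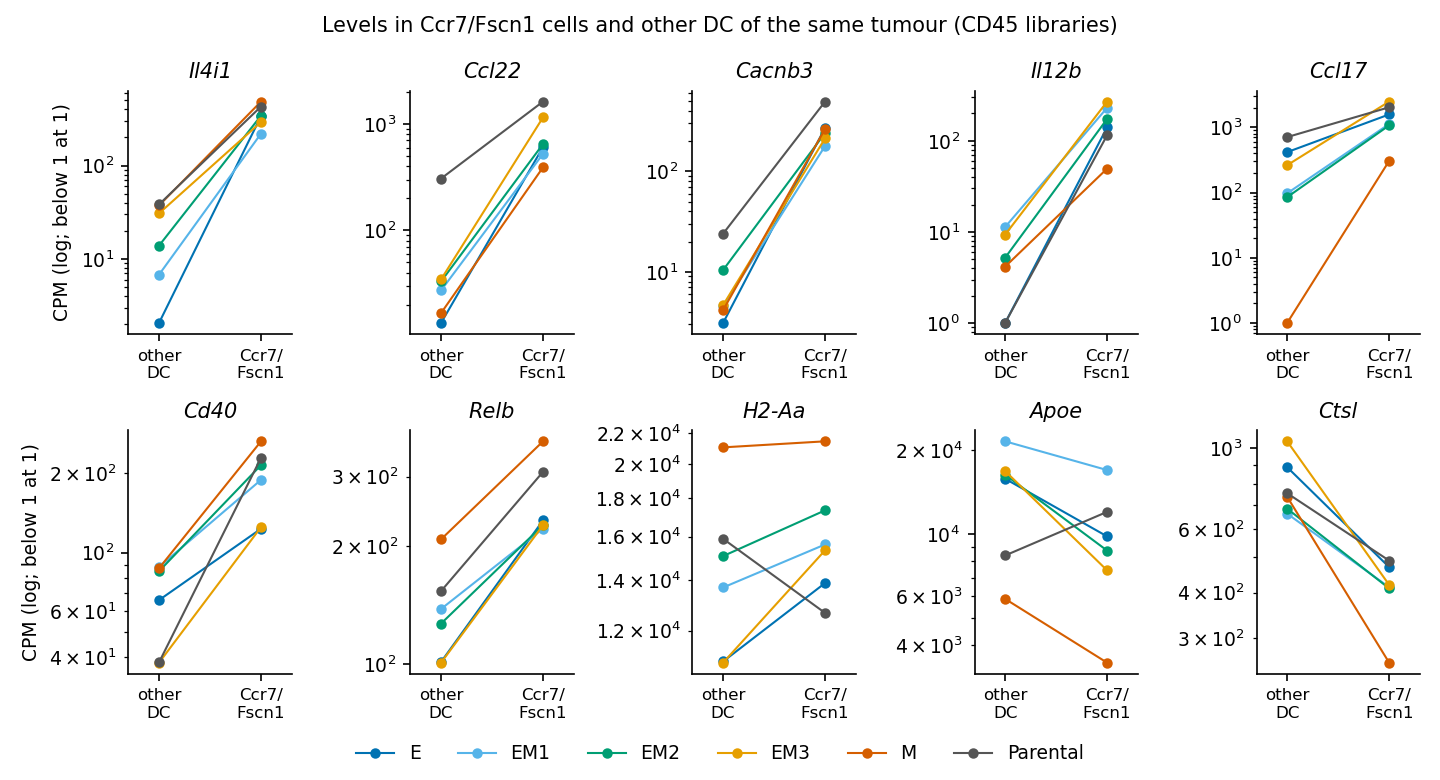
CPM of 10 genes in the other DC and in the Ccr7/Fscn1 cells of the same tumour, CD45 libraries, log axis, 1 line per tumour, values under 1 CPM drawn at 1. Cacnb3 rises in all 6 lines with no overlap, while H2-Aa falls in the parental tumour and rises in the other 5, and Apoe rises in the parental tumour alone.

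Costimulatory ligands moved with the maturation genes: 6 of 8 tested were higher and none lower, with a median log2 fold change of 0.67. Cd40, the receptor through which helper T cells license DC, had 123.2 (E), 188.9 (EM1), 214.9 (EM2), 125.0 (EM3), 264.5 (M) and 229.0 CPM (parental). In the other DC it stayed between 38.2 and 88.2 CPM, so that the groups did not overlap, and the log2 fold change was 1.46 ± 0.15 (edgeR adjusted p = 1.08e-05). Tnfsf4, the OX40 ligand, had 18.6 CPM in EM1 to 134.0 in the parental tumour, against 3.47 to 8.31. The CD28 ligands rose less, Cd80 by 0.75 ± 0.10 and Cd86 by 0.60 ± 0.12. The nectin family members Nectin2 and Pvr, ligands of Tigit and Cd226, rose by 2.22 ± 0.25 and 0.57 ± 0.11. Icosl and Cd48 did not pass the test, at -0.05 ± 0.25 and -0.10 ± 0.15.

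Among 10 tested inhibitory and regulatory genes, 4 were higher and 2 lower, with a median of -0.05. Without Clone E 1 was higher and 1 lower, without EM2 or EM3 2 and 1, and without EM1 3 and 1. With no replicate block 1 was higher and 0 were lower. Pdcd1lg2, the PD-L2 gene, had 391.2 to 698.2 CPM against 152.7 to 342.6, no overlap, and rose by 1.15 ± 0.12. Cd274, the PD-L1 gene, was high in both classes, with 395.2 to 631.1 CPM against 343.8 to 518.0, and rose by 0.36 ± 0.09 (edgeR adjusted p = 0.0211). Aldh1a2, the retinoic acid enzyme, and Tnfrsf9, or 4-1BB, rose by 1.37 ± 0.34 and 0.70 ± 0.18. In EM2 Aldh1a2 was lower in the Ccr7/Fscn1 cells, at 4.53 CPM (5 UMIs) against 8.67 in the other DC. Nt5e, which makes adenosine, fell by 0.77 on the log2 scale and Vsir, or VISTA, by 0.56.

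Of the cytokine genes, 3 of 8 were higher and 1 lower, and none was lower without Clone E, EM2 or EM3. Il12b, the p40 chain shared by IL-12 and IL-23, had 140.8 (E), 231.1 (EM1), 174.1 (EM2), 270.2 (EM3), 49.6 (M) and 115.3 CPM (parental). The other DC had 0 to 11.3 CPM of Il12b, all below the lowest of the Ccr7/Fscn1 values, and the log2 fold change was 5.15 ± 0.26. Ebi3, the shared chain of IL-27 and IL-35, rose by 1.23 ± 0.22, without overlap. Il1b was abundant in both, with 5052 to 8364 CPM against 2056 to 6528, and rose by 0.63 ± 0.14, but stood at -0.95 where the cells had to hold at least 1 UMI of both Ccr7 and Fscn1. Osm fell by 0.44 on the log2 scale, and was at 0.44 in the other direction in the Total libraries, where it did not pass (edgeR adjusted p = 0.21).

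Of 12 tested chemokine genes other than Ccl22, 4 were higher and 1 was lower. Without Clone M 2 were higher and 1 lower, without Clone E or EM1 none was lower, and without the parental tumour 3 were lower. Ccl17 had 1579 (E), 1127 (EM1), 1073 (EM2), 2487 (EM3), 306 (M) and 2034 CPM (parental). In the other DC it had 416.9, 97.3, 85.0, 262.9, 0 and 708.9 CPM in the same order. The classes overlapped across tumours because the other DC of the parental tumour and of Clone E lay above the Clone M Ccr7/Fscn1 cells. Within each tumour Ccl17 was higher, and the log2 fold change was 2.87 ± 0.29. Ccl5, a T cell chemokine, rose by 0.90 ± 0.26, Cxcl9, a ligand of Cxcr3 on effector T cells, by 1.04 ± 0.23, and Cxcl16 by 0.40 ± 0.11, each in 5 of 6 tumours. Cxcl9 stood at -1.41 with at least 1 UMI of both rule genes. Ccl24 fell by 0.80. Of 6 other chemokine receptors tested 1 was higher and 3 were lower. The lower ones numbered 1 without Clone E or EM3 and 0 with no replicate block. Ccr6 rose (1.24 ± 0.21, no overlap), while the inflammatory receptors Ccr1 and Ccr2 fell by 0.41 and 0.72 on the log2 scale. Ccr1 was lower in 4 of 6 tumours, was not called without Clone E, EM1, EM2 or EM3 or with DESeq2, and stood at 1.31 among cells that SingleR also calls DC. With no replicate block neither Ccr1 nor Ccr2 was called.

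The NF-kB list was the other group in which nearly every gene moved one way: 15 of 18 tested genes were higher, none lower, with a median log2 fold change of 0.61. The Total libraries gave 14 of 17 higher and none lower. The higher genes numbered 11 of 18 without Clone E, and 10 with no replicate block. They numbered 10 with at least 1 UMI of both rule genes, and 0 of 11 without cells holding lineage markers. Rel, the c-Rel subunit, had 836.4 (E), 637.4 (EM1), 785.3 (EM2), 791.1 (EM3), 1096 (M) and 888.8 CPM (parental), against 297.4 to 421.5 in the other DC, and rose by 1.23 ± 0.10 (edgeR adjusted p = 1.39e-06). Relb, the non-canonical subunit needed for DC maturation, had 221.2 to 369.2 CPM against 100.7 to 207.7, and rose by 1.02 ± 0.10. Nfkb1 rose by 0.93 ± 0.10 and Nfkb2 by 0.64 ± 0.09. The adaptor Traf1 rose by 1.09 ± 0.09 and the ubiquitin ligase Birc2 by 1.24 ± 0.21. The feedback inhibitors Nfkbia and Nfkbie rose by 0.43 ± 0.11 and 0.48 ± 0.10. Tnfaip3, Cflar and Bcl2l1 did not pass in the CD45 libraries (0.18 ± 0.15, 0.26 ± 0.13 and 0.41 ± 0.16), and all 3 passed in the Total libraries.

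The promoters of the NF-kB list were read for a kB motif, as a description. RefSeq start sites (build GRCm38.p6) were found for 16 of the 18 genes, and the 250 bases before each start were searched on both strands for GGG, any 3 bases and TTCC, which reads GGAA, any 3 bases and CCC on the opposite strand. The motif was chosen after the genes had been seen to move. It occurred before at least 1 start of 7 of the 16 genes (43.8%), against 5.31% of 27025 symbols. Of the 5919 tested genes with an entry 6.25% had a match, of the 411 higher ones 7.30% and of the 231 lower ones 6.49%. The list was made up of NF-kB pathway genes, so its share describes the list and is no result about these cells. A window of each of the 7 genes is shown to let the match be seen, 5′ to 3′ along the gene, with the match in capitals and up to 25 bases on either side.
Nfkb2, chr19:46304674-46304736, plus strand: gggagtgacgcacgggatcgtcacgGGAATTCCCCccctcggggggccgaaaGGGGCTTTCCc
Rel, chr11:23771026-23771085, minus strand: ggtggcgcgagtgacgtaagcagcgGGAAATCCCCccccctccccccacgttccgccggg
Nfkbia, chr12:55492648-55492701, minus strand: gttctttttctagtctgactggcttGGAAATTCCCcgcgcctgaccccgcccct
Nfkbie, chr17:45555569-45555628, plus strand: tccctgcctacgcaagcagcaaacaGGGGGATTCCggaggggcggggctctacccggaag
Tnfaip3, chr10:19015411-19015447, minus strand: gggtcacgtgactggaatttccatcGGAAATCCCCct
Bcl2l1, chr2:152830901-152830960, minus strand: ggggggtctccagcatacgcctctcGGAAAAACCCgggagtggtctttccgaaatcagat
Tnip1, chr11:54962962-54963023, minus strand: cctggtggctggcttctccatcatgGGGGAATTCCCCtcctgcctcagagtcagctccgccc
The Nfkb2 window holds a pair of matches, and the Tnip1 run holds a pair that overlap. A match is a description of letters; 5 of the 7 genes rose, while Tnfaip3 and Bcl2l1 did not pass in the CD45 libraries.

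**Figure D3:**
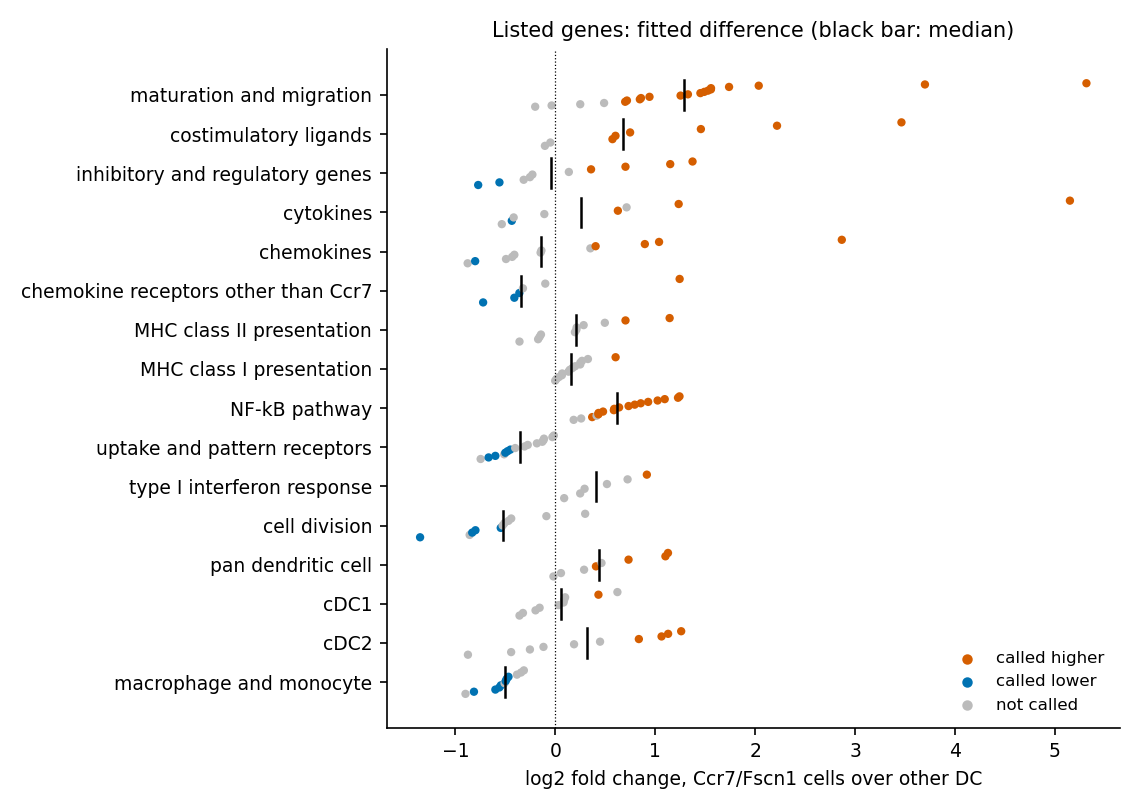
Fitted log2 fold change of each tested gene of 16 lists, Ccr7/Fscn1 cells over other DC, CD45 libraries (Il4i1 and Ccl22 not drawn). Orange points were called higher, blue lower and grey neither, and the black bar is the list's median. The medians of the maturation list (16 of 20 higher) and the NF-kB list (15 of 18 higher) lie to the right of 0.

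The count of antigen presentation genes that passed depended on the cells and tumours kept. Of 11 tested MHC class II genes 2 were higher, H2-DMb2 by 1.14 ± 0.20 and H2-Oa by 0.70 ± 0.18, both parts of the peptide loading machinery. Without the parental tumour 6 of 11 were higher, and without Clone E, EM1 or EM3 1 was. With 3 or more UMIs 7 were higher, without called doublets 4, with no low-count filter 6, and after thinning 7 were higher and 3 lower. The calls over all genes moved too. With 3 or more UMIs 696 of 7381 genes were higher, without called doublets 558 of 7024 and with no low-count filter 680 of 14910. After thinning 542 of 4545 were higher and 514 lower, and without the parental tumour 565 of 7820 were higher. The abundant class II gene H2-Aa had 13882 (E), 15625 (EM1), 17347 (EM2), 15348 (EM3), 21434 (M) and 12666 CPM (parental). The other DC had 10915, 13694, 15077, 10875, 21040 and 15897 CPM of H2-Aa, which overlap, and the log2 fold change of 0.21 ± 0.11 did not pass (edgeR adjusted p = 0.252). Of 14 class I genes 1 passed, a share near the 7.15% of all tested genes called higher. It was Nlrc5, the class I transactivator, at 0.60 ± 0.14; none passed without Clone E, and 3 were higher without the parental tumour. Receptors for uptake and pattern recognition went down or did not pass: of 16 tested, 5 were lower and none higher. The lower genes numbered 2 without Clone E, EM2 or EM3, 3 without Clone M, 8 without the parental tumour, 9 of 13 after thinning, 3 with DESeq2 and 0 with no replicate block. Over all genes, 400 of 7820 were lower without the parental tumour, 514 of 4545 after thinning, 139 of 7338 with DESeq2 and 40 of 7338 with no replicate block. The 5 lower uptake genes of the main result were Fcgr1, Fcgr3, Msr1, Tlr2 and Tlr4, which fell by 0.60, 0.48, 0.50, 0.45 and 0.67 on the log2 scale. Among cells that SingleR also calls DC, 3 of 8 tested uptake genes were higher and 3 lower. The median log2 fold change was 0.35 there, against -0.36 in the main result. In the Total libraries Fcgr3 and Tlr2 pointed upward without passing (0.52 and 0.42, edgeR adjusted p = 0.25 and 0.36), and of 9 tested uptake genes 1 was higher and none lower. The summed macrophage markers were lower in the Ccr7/Fscn1 cells in 5 of 6 tumours of the CD45 libraries, and their part in the uptake genes was not tested.

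The genes with the largest fall were Hspa1a, Hspa1b, Slc16a10, Ada, Phlda1, Lpxn, Capn2, Ctsl, Slc6a8, Rab7b, Top2a and F10, chosen among genes lower in 6 of 6 tumours. Hspa1a, an inducible heat shock protein, had 54.5 (E), 68.3 (EM1), 50.8 (EM2), 296.8 (EM3), 2.76 (M) and 37.3 CPM (parental). In the other DC it had 243.5, 171.9, 404.2, 456.8, 195.2 and 95.8 CPM, and the classes overlapped. Ctsl, a lysosomal protease, had 256.2 to 490.2 CPM against 660.5 to 1046 and fell by 0.90 ± 0.12 (edgeR adjusted p = 9.43e-05), but in the Total libraries it stood at 0.28 (edgeR adjusted p = 0.37). Capn2, a calpain, fell by 0.91 ± 0.13 and also in the Total libraries, by 0.69 (edgeR adjusted p = 0.013).

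Of 11 tested genes of cell division, 4 were lower and none higher: Birc5 fell by 1.35, Top2a by 0.83, Ccnb2 by 0.80 and Stmn1 by 0.55 on the log2 scale. The lower genes numbered 1 without EM3, 2 without Clone E, EM1 or EM2, and 0 with no replicate block. None of the 4 tested in the Total libraries was called.

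Markers of DC subsets and of other cells were read the same way. Of the pan-DC genes Flt3 (1.13 ± 0.20), Zbtb46 (1.10 ± 0.17), Dpp4 (0.73 ± 0.15) and Itgax (0.41 ± 0.09) were higher and 4 did not pass. None of 7 tested passed in the Total libraries or among SingleR DC cells, where the list's median was 0.03 and 0.07, and 2 of 8 passed with no replicate block. Of 10 tested cDC1 genes, which mark cross-presenting DC, only Clec9a passed (0.43 ± 0.13). That share is near the 7.15% of all tested genes called higher. Clec9a was not called without Clone E, EM1 or EM3, and 0 cDC1 genes were higher with DESeq2, after thinning or with no replicate block. Of 10 tested cDC2 genes Mgl2, Il1r2, Tnip3 and Cd209a were higher, by 1.26 ± 0.13, 1.13 ± 0.12, 1.06 ± 0.16 and 0.84 ± 0.24. With 3 or more UMIs 4 were higher and 3 lower of 10, after thinning 4 and 3 of 8, and without the parental tumour 4 and 2 of 10. With at least 1 UMI of both rule genes 1 of 8 was higher and 4 lower, with Mgl2 at -1.22 and Il1r2 at -1.21, while Cd209a, at -1.23, did not pass. Of 12 tested macrophage and monocyte genes 7 were lower and none higher. The lower genes numbered 4 of 11 without EM2, 11 of 13 without the parental tumour, 13 of 13 with 3 or more UMIs, 12 of 13 with no low-count filter and 0 with no replicate block. Over all genes, 164 of 7333 were lower without EM2, 400 of 7820 without the parental tumour and 589 of 7381 with 3 or more UMIs. With no low-count filter 478 of 14910 were lower, and with no replicate block 40 of 7338. The complement genes C1qa, C1qb and C1qc fell by 0.49, 0.56 and 0.50 on the log2 scale. Of 10 tested T cell genes 4 were lower, and Tcf7 was higher by 0.89 ± 0.21. None was lower without Clone E, EM1 or EM3, with DESeq2 or with no replicate block, and 1 was lower without EM2 or without called doublets. Kit was higher by 0.89 ± 0.13, while Cpa3, Mcpt8, Tpsb2 and Ms4a2, defining genes of mast cells and basophils, were at 0 in the Ccr7/Fscn1 cells of all 6 tumours.

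The Total libraries, a second draw of cells from the same tumours, gave a different picture for these subset genes. There 3868 genes were tested, 308 were higher (7.96%) and 157 lower (4.06%). Of the 525 genes called higher in the CD45 libraries 425 were tested, 398 had the same sign and 219 were called. Of the 300 lower genes 154 were tested, 117 had the same sign and 32 were called. Of 9 tested cDC1 genes 7 were lower and none higher, among them Naaa (-0.83), Irf8 (-0.60), Itgae (-0.53) and Clec9a (-0.52). Macrophage genes turned: C1qa, C1qb and C1qc were higher by 0.69, 0.91 and 1.12, and 4 of 8 tested were higher with none lower. The summed macrophage markers were far lower there, at 817 to 5267 CPM in the Ccr7/Fscn1 cells and 1101 to 2276 in the other DC. The difference between the library types was not tested. Of the maturation list all 16 tested genes were higher in the Total libraries too. When both classes were held to cells that the authors' SingleR column also calls DC, 497 of 4324 genes were higher (11.5%) and 355 lower (8.21%). There 15 of 16 tested maturation genes were higher and none lower, 8 of 10 cDC1 genes were lower, and of 8 macrophage genes 1 was higher, near the share of all genes, and none lower. That alternative was chosen after the data were seen.

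The Ccr7/Fscn1 cells were not uniform. Only 179 of the 934 (19.2%) held both genes, 750 (80.3%) held Ccr7 with no Fscn1 UMI, and 5 held Fscn1 alone. By tumour the cells with both numbered 49 in EM2, 37 each in the parental tumour and Clone E, 33 in EM3, 18 in EM1 and 5 in M. They had a median of 13 Fscn1 and 24 Ccr7 UMIs per cell at a median depth of 3138 UMIs. The cells with Ccr7 alone had a median of 10.5 Ccr7 UMIs at the greater depth of 5289 UMIs. SingleR named 162 of the 179 cells with both (90.5%) DC, and 410 of the 750 with Ccr7 alone (54.7%). The 49 cells marked by the doublet score all had Ccr7 alone. This split was made after the values were seen, so levels across it are a description with no test.

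The label genes and most maturation genes had their highest levels in the cells with both, and the cells with Ccr7 alone lay above the other DC in Ccl22 and Il4i1. Ccl22 had 3697 CPM (3557.5 to 3840.0) in them over all tumours, 382.5 (364.9 to 400.8) in the cells with Ccr7 alone and 42.5 in the other DC. Il4i1 had 1330, 174.8 and 17.9 CPM in the same order. Cacnb3 had 1690 CPM (1596 to 1788), 38.2 (32.7 to 44.2) and 6.27. By tumour Cacnb3 in the cells with both was 1610 (E), 1646 (EM1), 1652 (EM2), 1228 (EM3), 2810 (M) and 2548 CPM (parental), far above the 26.8 to 105.4 of the cells with Ccr7 alone. Cd200 had 520.2 and 21.0 CPM, and Ccl5 2491 and 167.0 CPM, with the other DC at 304.9. Of 22 maturation genes at 50 CPM or more in either subset, 16 were higher in the cells with both in all 6 tumours and none was lower in all 6. Over all 4456 genes at that level the shares were 16.3% higher and 14.1% lower. Cd40 had 522.9, 119.5 and 63.3 CPM, and Relb 659.2, 181.1 and 120.2 CPM. Of 18 NF-kB genes at that level 9 were higher in the cells with both in all 6 tumours and 0 were lower.

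Ccl17 followed this order over all tumours together, but not in most single tumours. It had 1754 CPM (1658 to 1853) in the cells with both and 1562 (1526 to 1598) in those with Ccr7 alone, against 263.8 in the other DC, and the cells with both were higher in 2 of 6 tumours. MHC class II genes ran the other way. H2-Aa had 8058 CPM (7852 to 8268) in the cells with both, 16776 (16658 to 16895) in those with Ccr7 alone and 12927 in the other DC, and was lower in the cells with both in 6 of 6 tumours. Of 10 class II genes at this level 7 were lower in all 6 tumours, set against the 14.1% of all genes. Class I genes did not share this: of 14, 5 were higher in the cells with both in all 6 tumours and 1 was lower. Of 9 cDC1 genes 6 were lower in all 6 tumours and 1 higher, and of 9 cDC2 genes 3 were lower and 1 higher. Over all genes at this level the shares were 14.1% lower and 16.3% higher. The 1 higher gene in each list is no more than that share. Among the lower levels, Itgae had 65.4 CPM against 409.0, Naaa 217.0 against 882.5, Mgl2 375.5 against 1087 and Il1r2 432.5 against 1110.2. Irf4, a regulator of DC migration, was higher over all tumours together, at 80.7 CPM against 10.6. It is not among the genes higher in all 6, since Clone M had none in its 5 cells with both. Of 7 pan-DC genes at this level 3 were higher in the cells with both in all 6 tumours and 2 were lower. On that list Zbtb46 had 242.0 CPM against 67.4, and Batf3 125.2 against 25.6.

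**Figure D4:**
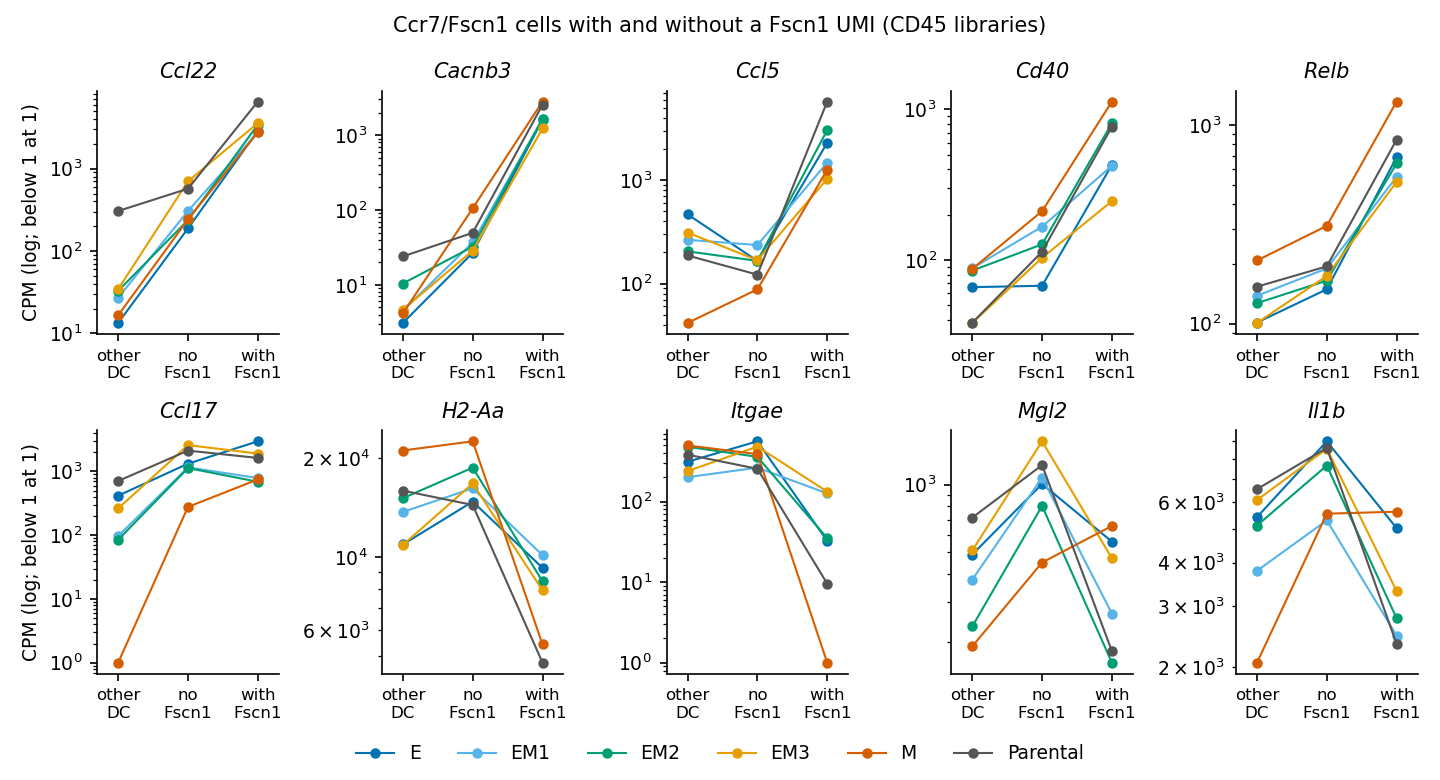
CPM of 10 genes in the other DC, in the Ccr7/Fscn1 cells with no Fscn1 UMI and in those with Fscn1 and Ccr7, CD45 libraries, log axis, 1 line per tumour, values under 1 CPM drawn at 1 (Clone M has 5 cells in the last set). Cacnb3 and Ccl22 rise steeply in the cells with Fscn1, Ccl17 does not, and H2-Aa is lower there in all 6 tumours.

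An alternative rule asked for at least 1 UMI of each gene and set those cells against all remaining DC, the cells with Ccr7 alone included. It takes the same 179 cells as the split above, was listed with earlier results of these data known, and is no independent check of that split. Of 5895 genes tested, edgeR called 824 higher (14%) and 867 lower (14.7%). The smallest sums of this fit were those of Clone M, with 5 cells and 21355 UMIs, and EM1, with 18 cells and 71102 UMIs. Maturation genes were higher in 18 of 19 tested, Cd63 among them (1.12), and Cacnb3 was at 5.98. Of 11 class II genes 7 were lower and none higher, with H2-Aa at -1.15 (edgeR adjusted p = 0.0044) and Cd74 at -1.002. Of 14 class I genes 5 were higher and 1 lower. Of 9 cDC1 genes 7 were lower, with Itgae at -2.58, while Irf8 was higher at 0.77. Of 8 cDC2 genes 4 were lower and 1 was higher. Uptake genes were lower in 10 of 14 and macrophage genes in 11 of 11. Of 11 chemokine genes other than Ccl22, 1 was higher and 6 were lower, with a median of -1.24. Ccl5 was at 3.40, and Ccl17, at 0.56, no longer passed (edgeR adjusted p = 0.109). The Total libraries hold more Fscn1 outside DC, with a UMI in 11.4% of macrophages against 0.676% in the CD45 libraries, and with 400.7 to 679.6 CPM in tumour cells. There 155 DC held both genes, at a median of 5 Fscn1 UMIs, and 306 held Ccr7 alone. The part of free Fscn1 RNA in that class was not tested. Levels in the cells with both and with Ccr7 alone were, for Cacnb3 1074 and 92.9 CPM, Cd63 889.7 and 214.9, H2-Aa 11597 and 21509, Ccl17 1671 and 1549.9. Of 9 macrophage genes at 50 CPM or more in either subset, 0 were lower in the cells with both in all 6 tumours there. In the CD45 libraries 5 of 11 were. Of uptake genes 2 of 10 were lower in all 6 tumours there, against 8 of 11 in the CD45 libraries. Over all genes 14.1% were lower in the CD45 libraries, and that share was not taken for the Total libraries. No difference between the library types is therefore read from these counts.

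The share of DC with both genes was read by tumour as well. The parental tumour had 22.7% (16.5 to 29.9), Clone EM2 13.5% (10.1 to 17.4) and E 11.3% (8.07 to 15.2). Clone EM3 had 10.6% (7.42 to 14.6), EM1 7.73% (4.64 to 11.9) and M 5.05% (1.66 to 11.4). The interval of the parental tumour lay above those of Clones E, EM1, EM3 and M and overlapped that of EM2. The Total libraries gave 41.5% (29.4 to 54.4) in the parental tumour and 12.7% to 25.2% in the clones, but 459 of 2638 macrophages of the parental Total library also held an Fscn1 UMI, and no order is read from these shares.

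Levels in the Ccr7/Fscn1 cells also differed between tumours, given here as single-tumour values with no test. A gene was said to vary where its highest and lowest tumours differed at least 4-fold, with intervals apart and at least 50 CPM in the highest. This held for 28 of 130 listed genes at that level, and for 268 of 4755 genes in all (5.64%). Ccl17 was lowest in Clone M, at 305.8 CPM, and 1073 or more in the other 5 tumours, and the Total libraries gave 249.1 in Clone M against 1275 to 2483. Ccl22 was lowest in Clone M (391.2 CPM) and highest in the parental tumour (1627), which in the Total libraries had 3683 CPM against 948.7 to 1472 in the clones. Ccl5 was highest in the parental tumour at 1121 CPM and lowest in Clone M at 157.0, but in the Total libraries it was highest in Clone E. Tnfrsf9 was highest in the parental tumour in both, at 912.5 CPM in the CD45 library against 204.0 to 397.3 in the others. The share of cells with both genes was highest in the same tumour, and its part in these levels was not tested.

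Cxcl9, which interferon gamma induces, was lowest in the parental tumour in both libraries. It had 144.2 (E), 448.6 (EM1), 348.2 (EM2), 257.7 (EM3), 104.7 (M) and 23.7 CPM (parental), while the other DC of the same tumours had 34.1, 497.6, 144.0, 120.3, 45.7 and 0 CPM. Of the type I interferon response genes, Irf7 had 509.7 CPM in Clone M and 108.5 in EM3, and Rsad2 197.0 in Clone E and 13.3 in EM3. Rsad2 was highest in Clone E in the Total libraries too, at 166.0 CPM, but had 19.4 in Clone M and 28.9 in EM3 there. Irf7 in the Total libraries was highest in EM1 and lowest in the parental tumour. Il12b was highest in EM3 and lowest in Clone M in the CD45 libraries, whereas in the Total libraries it was highest in the parental tumour and lowest in EM3, so the order was not the same in both libraries of a tumour.

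**Figure D5:**
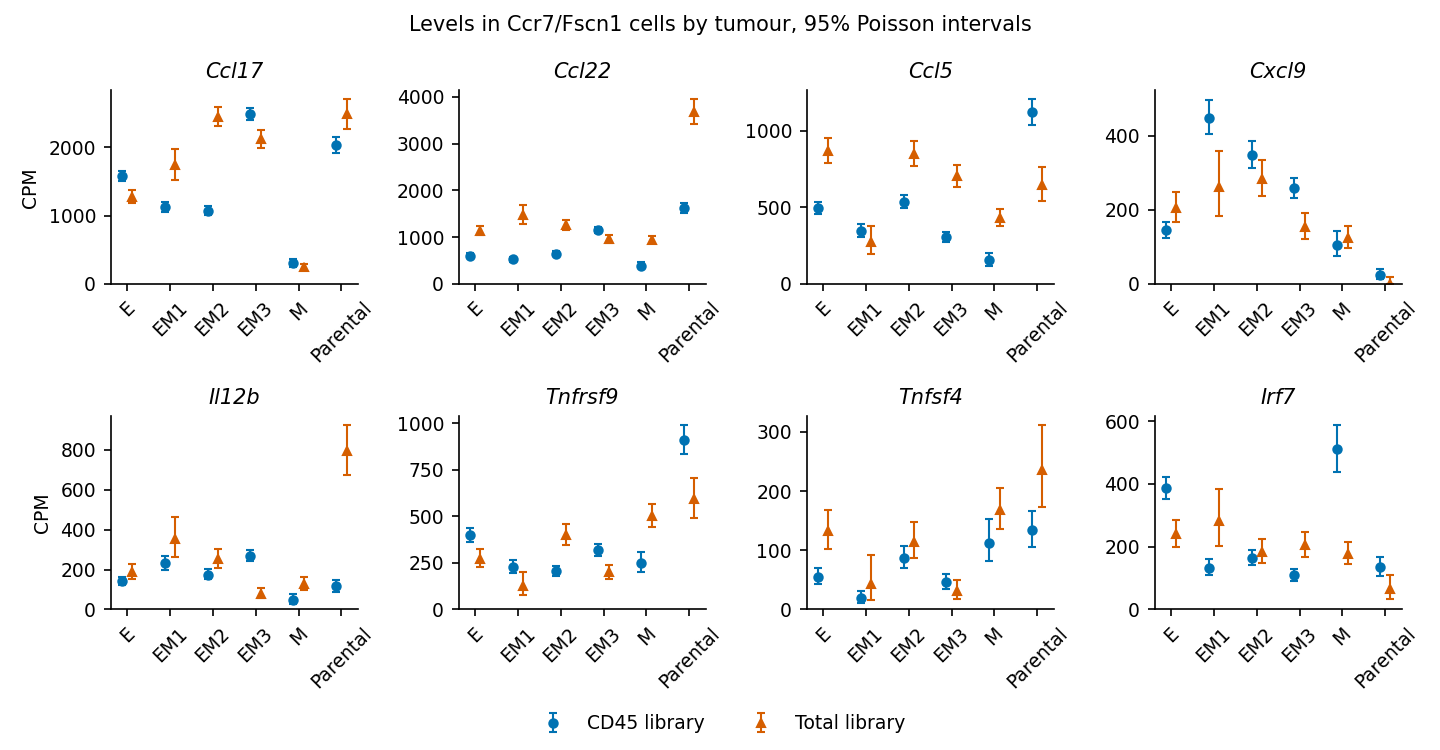
CPM of 8 genes in the Ccr7/Fscn1 cells of each tumour, with 95% Poisson intervals, circles for the CD45 and triangles for the Total libraries, 1 tumour per group. Ccl17 is lowest in Clone M and Cxcl9 lowest in the parental tumour in both libraries, while Il12b and Ccl5 change order between them.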

How the data were processed

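Raw UMI counts per gene and cell were deposited by the authors for 12 libraries (6 tumours, Total and CD45), with tables giving, per the file headers, UMI and gene counts, the mitochondrial percent of UMIs and cell annotations per cell. Cell Ranger and mm10 are named in the submitters' processing notes; their versions are not given in the sources used here. The labels' protocols name a fixed-RNA kit and also 3′ reagents. UMI sums and gene numbers recomputed from the counts equalled the deposited ones in every cell. No deposited column of another sample was used.

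Cells were chosen by the authors' broad annotation and the UMI rule. The members and gene lists were chosen with earlier results of these data known. Counts were summed per tumour and class and tested with edgeR 4.0.16 (TMM, filterByExpr, quasi-likelihood test, tumour as block). Both classes of a tumour come from 1 library, so the block rests on the design. Ccr7 and Fscn1 were left out of the test. Genes leading the text were the 12 largest and 12 smallest fold changes among called genes with at least 50 CPM in either class and the same sign in 6 of 6 tumours; the label genes Il4i1 and Ccl22 meet this and were left out of it. On simulated counts the script was checked against known changes. Doublets were scored by a Scrublet-type method with 1 limit (0.28), which marked 2316 of 115612 cells (2.00%); they were kept in the main result and left out in an alternative. Alternatives were other rule thresholds, thinning to 2000 UMIs, DESeq2 1.42.0, other size factors and filters, leaving out each tumour, the Total libraries, and cells without lineage markers. A fold against a class at 0 is no bound. The Ccl17 difference given below for Clone M is of this kind and rests on the pseudocount. Some listed genes are not reported here.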

Additional observations from a re-analysis of the deposited data

Results flagged for a closer look

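In 3 of the 24 leading genes the difference of the Ccr7/Fscn1 cells over the other DC of the same tumour, on the log2(CPM + 1) scale, lay far from the other tumours in Clone M. Ccl17 was highest in Clone M, at 8.26, with the next tumour at 3.64; the 37 other DC of Clone M held no Ccl17 UMI, so the pseudocount sets that value. Rab7b was lowest in Clone M, at -2.93, with the next at -1.29. Top2a was lowest in Clone M, at -4.86, with the next at -0.98; the Ccr7/Fscn1 cells of Clone M held 1 Top2a UMI, so counting error and the pseudocount bear on that value too. Such a gap arises by chance in about 5% of groups, and Clone M had the fewest cells, 62 and 37. Without Clone M, 487 genes were higher and 302 lower.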

How the results depend on the processing

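Of the 24 leading genes all kept direction and call with 3 or more UMIs, without called doublets, with RLE size factors, with DESeq2 and with no low-count filter. With at least 1 UMI of each gene 5 lost their call. In the Total libraries 16 had a value, of which 2 lost their call and 1 turned. Among SingleR DC 19 had a value and 1 turned. After thinning 21 had a value and 1 lost its call. Leaving out the tumour as replicate block left 276 genes higher and 40 lower, and 4 of the 24 lost their call. Genes higher numbered 824 under at least 1 UMI of each gene, 308 in the Total libraries and 15 without cells holding lineage markers, where 830 genes were tested. Genes lower numbered 589 with 3 or more UMIs, 867 with 1 UMI of each gene, 514 after thinning, 3 without lineage-marker cells, 139 with DESeq2, 478 with no low-count filter and 157 in the Total libraries. Leaving out 1 tumour gave 357 to 565 higher and 135 to 400 lower genes, with 148 without Clone E, 164 without EM2 and 135 without EM3. Of the 89 other listed genes with a call, 28 lost it without Clone E, 22 without EM3, 21 without EM2, 1 without the parental tumour, 51 with no replicate block and 22 with DESeq2; without lineage-marker cells 30 of the 36 with a value lost it and 1 turned.

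With 1 UMI of each gene the direction turned for Cd63 (1.12), Anxa3 (0.54), Il1b (-0.95), Cxcl9 (-1.41), H2-Aa (-1.15), H2-Ab1 (-1.27), H2-Eb1 (-1.21), H2-Oa (-0.20), Cd74 (-1.002), Itgax (-1.24), Clec9a (-1.55), Itgae (-2.58), Cd209a (-1.23), Mgl2 (-1.22), Il1r2 (-1.21) and Kit (-0.14). Among SingleR DC it turned for Ctsl (0.68), Cd63 (3.87), Anxa3 (1.85), Osm (0.66), Ccr1 (1.31), Fcgr3 (0.17), Cd14 (0.65), Clec9a (-0.35), Itgae (-0.68), Irf8 (-0.48), C1qa (0.0402), C1qb (0.33) and C1qc (0.32). In the Total libraries it turned for Ctsl (0.28), Cd63 (1.92), Anxa3 (1.07), Osm (0.44), Fcgr3 (0.52), Tlr2 (0.42), Cd14 (0.62), Dpp4 (-0.23), Clec9a (-0.52), Itgae (-0.53), Irf8 (-0.60), Cd209a (-0.0064), C1qa (0.69), C1qb (0.91), C1qc (1.12) and Apoe (0.91). Without lineage-marker cells Itgax was at -0.0002. The cause was not tested.

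The share of DC moved to 48.2% in Clone E, 55.8% in EM1 and 59.1% in EM2 with 3 or more UMIs. With 1 UMI of each gene the parental tumour had 22.7%, EM2 13.5%, E 11.3%, EM3 10.6%, EM1 7.73% and M 5.05%. Thinned, the parental tumour had 55.7%, EM2 51.8%, EM3 46.3%, EM1 45.2% and E 44.0%. In the Total libraries it was 61.8% in Clone E, 68.5% in EM3 and 80.4% in M. With 1 tumour per group, differences between tumours have no replicate check.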
